A study of Homo sapiens with 12 samples.

Results

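The RNA of 8 cadherin genes was followed across 12 libraries of 2 triple-negative breast cancer cell lines. The genes were CDH1, CDH2, CDH3, CDH4, CDH5, CDH6, CDH11 and CDH13, chosen by name from the 32152 genes listed. MDA-MB-231 and Hs-578T are established lines with mesenchymal features. In each line, 2 libraries came from parental controls, 2 from cells labelled ERK5-ko and 2 from cells labelled MEK5DD. ERK5-ko cells had been exposed to Cas9 with guides against exons of MAPK7, the gene of the kinase ERK5, and were grown from single cells, so that the MDA-MB-231 group is 1 clone. MEK5DD is a variant of the upstream kinase MEK5 that is always active and that phosphorylates ERK5. The passage labels were 29 and 30 for MDA-MB-231 parental cells against 7 and 8 for ERK5-ko and 10 and 11 for MEK5DD cells, and 83 and 84 for Hs-578T parental cells against 8 and 9 for both other groups, so that passage and label cannot be told apart in a comparison with parental controls.

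Cadherins are calcium-dependent adhesion proteins of the cell surface. In classical cadherins the outer part binds a cadherin on the neighbouring cell, and the cytoplasmic tail binds catenins, which connect the adherens junction to actin. CDH1 (E-cadherin) is typical of epithelial cells, and its replacement by CDH2 (N-cadherin) is a common description of the epithelial-to-mesenchymal transition. CDH3 (P-cadherin) and CDH4 (R-cadherin) belong with them to type I. CDH5 (VE-cadherin of the endothelium), CDH6 (K-cadherin) and CDH11 (OB-cadherin, found in mesenchymal cells) belong to type II. CDH13 (T-cadherin) is held in the membrane by a lipid anchor and has no cytoplasmic tail, so it is a classical cadherin by family and not by its link to catenins.

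The labels were first checked against the kinases. In MDA-MB-231, MAPK7 RNA was 13.8 ± 0.699 RPKM in parental controls (SD, n = 2) and 17.03 ± 1.04 under the label ERK5-ko. In Hs-578T it was 15.0 ± 1.42 and 18.0 ± 0.268 RPKM. RPKM divides a gene's reads by gene length (in kilobases) and by library depth. RNA of the targeted gene was thus not lower in libraries labelled ERK5-ko, and reads summed over a gene do not show whether its protein was lost. The authors reported by Western blot that ERK5 protein was strongly reduced in ERK5-ko cells of both lines. MAP2K5, the gene of MEK5, was 13.2 ± 0.496 RPKM in MDA-MB-231 parental controls and 186 ± 3.31 in libraries labelled MEK5DD, and 15.8 ± 1.65 and 22.5 ± 1.81 in Hs-578T. The rise in Hs-578T was much smaller and was not called by the rule given below, so the MEK5DD label is less clear in the RNA of that line. Of the receptors that define the triple-negative class, the group means of ESR1 lay between 0.0364 and 0.0908 RPKM and those of PGR between 0 and 0.325 RPKM, while ERBB2 lay between 31.5 and 55.9 RPKM, a level of RNA that does not give the amount of protein. VIM, the intermediate filament of mesenchymal cells, lay between 1617 and 3768 RPKM, and KRT18, a keratin of simple epithelia, between 175 and 682 RPKM. Library totals lay between 20248162 and 27791195 reads, of which 92.06% to 94.52% were on listed genes.

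Of the 8 genes, 5 lie on chromosome 16 in GRCh38. CDH3 (chr16:68636189-68722616, plus strand) ends 14608 bases before CDH1 (chr16:68737225-68835548, plus strand) begins, and the same chromosome carries CDH11 (chr16:64943753-65126112, minus strand), CDH5 (chr16:66366622-66404786, plus strand) and CDH13 (chr16:82626803-83800640, plus strand). CDH2 lies at chr18:27950966-28177446 on the minus strand, CDH4 at chr20:61252426-61940617 on the plus strand and CDH6 at chr5:31193750-31329146 on the plus strand. CDH3, the neighbour of CDH1, was called in none of the comparisons described below. With 3 to 32 reads per library it was too shallow for this to show whether the 2 genes share a pattern. CDH11 holds a further listed gene on its own strand, RP11-229O3.1, which shares 2105 bases with it and reached 7.94 RPKM. The reads of such a pair cannot be fully told apart by strand.

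The RefSeq promoter table (GRCh38.p14) held windows for 2 of the 8 genes, CDH2 and CDH4. The windows of CDH4 are shown because its RNA was called in opposite directions in the 2 modified MDA-MB-231 groups and was at the floor in Hs-578T. Each sequence is the 250 bases before a start site, both starts lie inside the gene as listed, and capitals mark CAGGTG or CACCTG, the E-box that Snail and ZEB factors are known to bind.
CDH4, chr20:61599511-61599760, plus strand: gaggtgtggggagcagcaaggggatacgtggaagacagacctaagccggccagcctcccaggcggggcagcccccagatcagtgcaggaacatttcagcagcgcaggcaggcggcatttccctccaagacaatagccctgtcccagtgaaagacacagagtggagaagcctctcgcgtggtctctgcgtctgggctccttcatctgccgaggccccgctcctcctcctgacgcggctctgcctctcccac
CDH4, chr20:61499171-61499420, plus strand: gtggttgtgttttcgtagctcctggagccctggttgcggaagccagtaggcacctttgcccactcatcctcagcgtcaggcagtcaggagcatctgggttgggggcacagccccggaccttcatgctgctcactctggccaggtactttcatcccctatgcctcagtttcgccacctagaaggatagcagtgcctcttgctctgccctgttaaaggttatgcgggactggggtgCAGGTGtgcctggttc
The window at 61499171 held 1 match and the one at 61599511 held 0, while 17.5% of the 35116 windows of that length in the table held at least 1. Neither window of CDH2 held a match. These matches describe letters only, and reads summed over a gene do not show which start was used.

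Read depth separated the 8 genes before any comparison was made. A gene was taken to be at the floor in a group when each of its libraries had 3 reads or fewer, a limit that covers counting error only. CDH5 had 0 or 1 read in all 12 libraries and is not tested. CDH6 had 0 or 1 read in the 6 MDA-MB-231 libraries, and CDH4 had 0 or 1 read in the 6 Hs-578T libraries. CDH13 had 0 to 2 reads in the MDA-MB-231 libraries labelled parental or ERK5-ko, and CDH1 had 2 and 0 reads in MDA-MB-231 MEK5DD libraries. CDH3 was close to the floor throughout, with 3 to 32 reads. CDH2 and CDH11 were above 3 reads in all 12 libraries. Fewer cells with an RNA and less of it per cell cannot be told apart in these bulk samples.

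**Figure D1:**
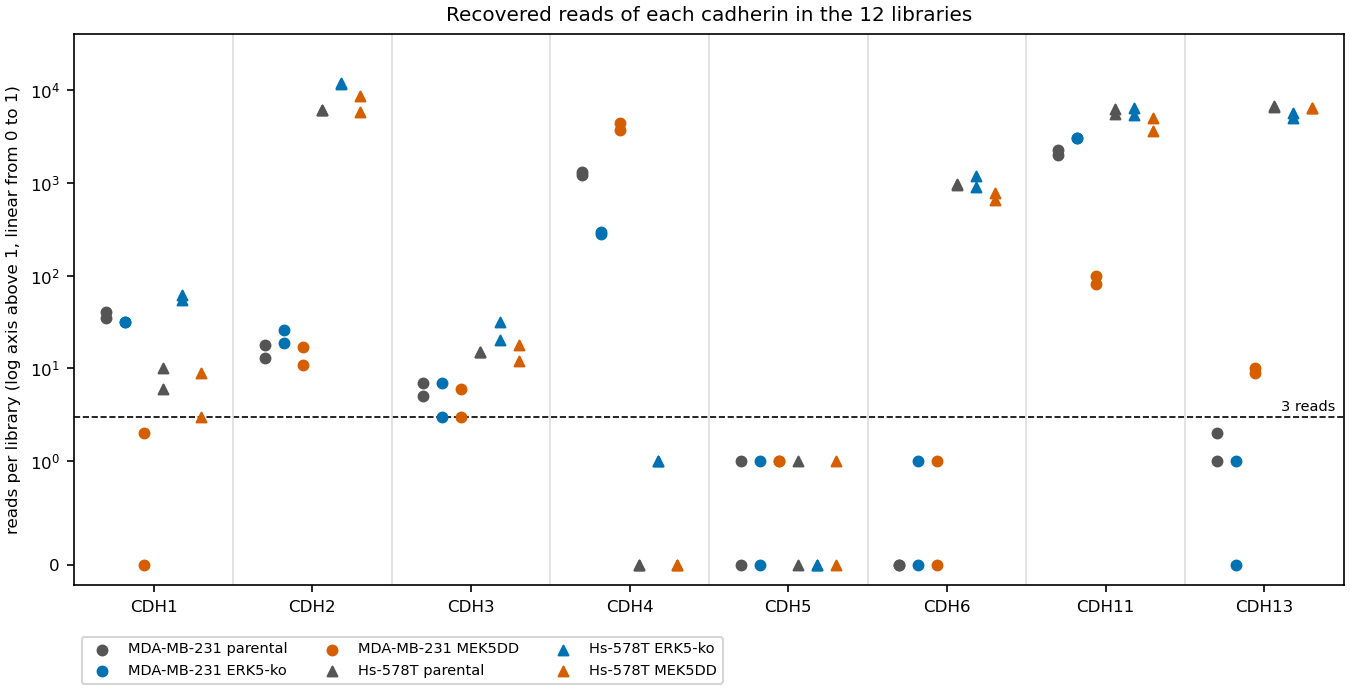
Recovered reads per library for each of the 8 cadherins, on an axis that is logarithmic above 1 read and linear from 0 to 1; circles are MDA-MB-231 and triangles Hs-578T, grey parental, blue ERK5-ko and orange MEK5DD, and the dashed line marks 3 reads. CDH5 lies under the line in all 12 libraries, CDH4 in the 6 of Hs-578T and CDH6 in the 6 of MDA-MB-231.

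The parental lines carried different cadherins. MDA-MB-231 parental controls had CDH11 at 53.1 RPKM in each library and CDH4 at 11.3 and 10.96 RPKM, and the other members were under 0.651 RPKM. Hs-578T parental controls had CDH11 at 160.5 and 196 RPKM, CDH13 at 149.8 and 171 RPKM, CDH2 at 135 and 146 RPKM and CDH6 at 13.3 and 14.4 RPKM. The summed level of the 8 genes was 65.4 ± 0.223 RPKM in MDA-MB-231 and 493 ± 49.1 RPKM in Hs-578T (SD, n = 2). CDH11 made up 81.2% of that sum in MDA-MB-231. In Hs-578T, CDH11 made up 36.1%, CDH13 32.5% and CDH2 28.5%. In Hs-578T parental controls the libraries of CDH11 and CDH13, the first in order, overlapped, and those of CDH13 and CDH2 did not, the nearest being 149.8 and 146 RPKM. In ERK5-ko libraries the order was CDH2, CDH11 and CDH13 with no overlap, and in MEK5DD libraries CDH2, CDH13 and CDH11, where CDH2 overlapped both CDH13 and CDH11.

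Levels between genes depend on the length used. The lengths behind the RPKM values, 1508 bases for CDH11, 1988 for CDH2, 1898 for CDH13 and 4296 for CDH4, were near the mean length of a gene's annotated transcripts for most genes. With the longest GENCODE 29 transcript instead (6874, 4332, 8042 and 6513 bases, an alternative added after the data were seen), CDH2 made up 43.9% of the sum in Hs-578T parental controls and CDH11 26.6%, so that the order turned. In MDA-MB-231 parental controls CDH11 stayed ahead, at 59.8% against 37.7% for CDH4. The ratio of reads of 1 gene between groups does not depend on this choice. A filter on RPKM and changes fitted on the RPKM scale do depend on it for genes of low level. CDH1 in MDA-MB-231 parental controls, for example, was 0.645 RPKM with the deposited length and 0.292 RPKM with the longest transcript. The tests below used the deposited lengths only.

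**Figure D2:**
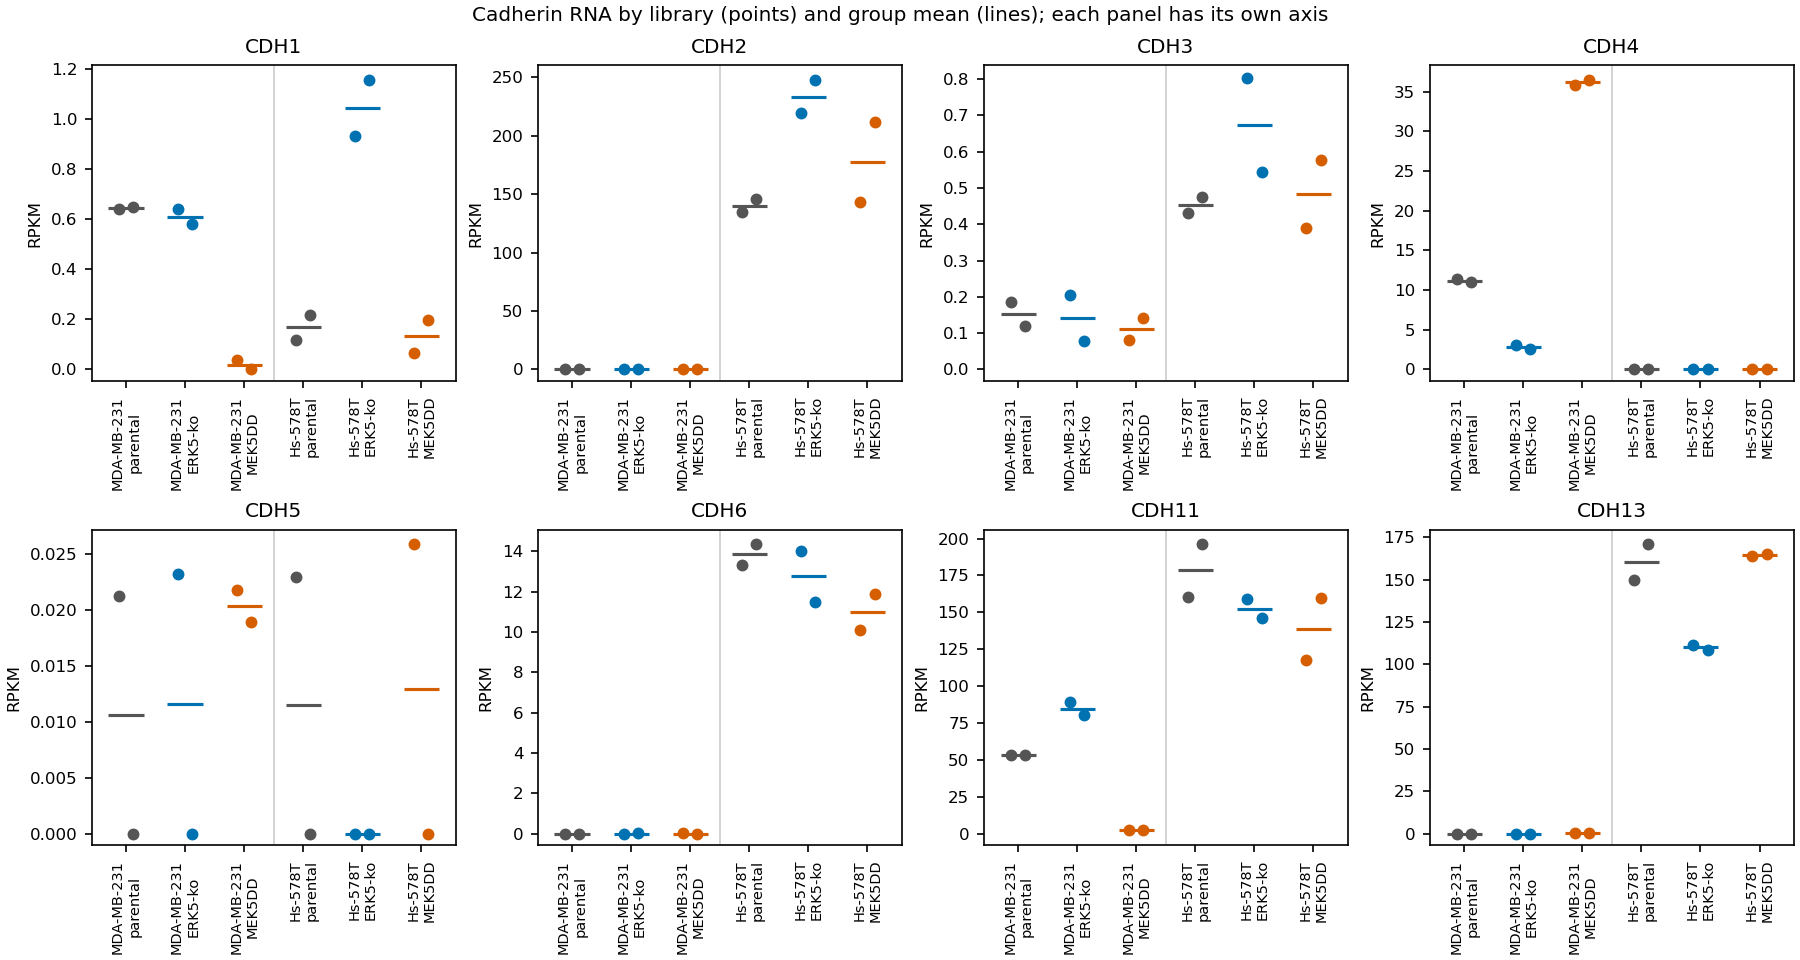
RPKM of each cadherin in the 2 libraries of each group (points) with the group mean (line), on a linear axis of its own in each panel, with MDA-MB-231 left and Hs-578T right of the grey line. CDH4 is read in MDA-MB-231 and CDH2, CDH6 and CDH13 in Hs-578T, while CDH11 is read in both lines except at 2.26 and 2.37 RPKM in MDA-MB-231 MEK5DD libraries.

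All tests below used limma on log2(RPKM + 0.5) over 13737 protein-coding genes, with p-values adjusted by the Benjamini-Hochberg method. Of the 8 genes, 7 passed the filter of 0.5 RPKM in at least 2 libraries, CDH4 through MDA-MB-231 alone, and CDH2, CDH3, CDH6 and CDH13 through Hs-578T alone. A gene was called at an adjusted p under 0.05 with a fold above 1.5 or below 0.5. A fall thus had to be larger than a rise to be called, and counts of higher and lower calls are not on equal terms. The scale understates changes of genes near 0.5 RPKM, and for these the ratio of reads is given with a 95% exact interval for counting error.

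Between the parental lines 5 members were called, where 44.2% of all tested genes were. Of these, CDH2, CDH4, CDH6 and CDH13 had passed the filter through the line in which they were high. CDH2 was higher in Hs-578T by 7.47 ± 0.16 (log2 ± SE, adjusted p = 3.04e-12). CDH13 was higher by 8.24 ± 0.10 (adjusted p = 1.26e-13), with 13220 reads summed over the Hs-578T pair against 3 over the MDA-MB-231 pair, a ratio per total of 5310 (1817 to 25753). CDH11 was higher by 1.73 ± 0.14 (adjusted p = 3.15e-07). CDH6 had 0 reads in MDA-MB-231 parental libraries and was at least 387-fold higher in Hs-578T, against a floor of 3 reads per library (adjusted p = 1.03e-11). CDH4 went the other way, with 0 reads in Hs-578T parental libraries, at least 347-fold lower than in MDA-MB-231 (adjusted p = 4.08e-12). CDH1 was lower in Hs-578T by a read ratio of 0.257 (0.140 to 0.445) and CDH3 higher by a ratio of 3.01 (1.498 to 6.46). These changes of CDH1 and CDH3 passed the adjusted p (0.000165 and 0.00467) and not the fold threshold on the log2(RPKM + 0.5) scale.

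Under the label ERK5-ko in MDA-MB-231, CDH4 fell and CDH11 rose, which were the 2 members called beside 3.87% of all tested genes. CDH4 was 11.3 and 10.96 RPKM in parental controls and 3.06 and 2.64 RPKM in ERK5-ko libraries. The groups did not overlap, and CDH4 fell by 1.80 ± 0.10 on the log2 scale (adjusted p = 1.22e-06). CDH11 was 53.1 RPKM in both parental libraries and 89.0 and 80.4 RPKM in ERK5-ko libraries, a rise of 0.67 ± 0.14 (adjusted p = 0.00695). Without any 1 of 3 of these 4 libraries the rise of CDH11 kept its size (0.59 to 0.67) but not its call: the adjusted p was 0.0531 without parental replicate 1, 0.053 without parental replicate 2 and 0.0656 without ERK5-ko replicate 1. CDH11 made up 95.4% of the summed cadherin RPKM in ERK5-ko libraries and CDH4 3.21%.

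CDH1, the epithelial cadherin, was at 0.640 and 0.650 RPKM (35 and 40 reads) in MDA-MB-231 parental controls and at 0.640 and 0.579 RPKM (32 and 32 reads) in ERK5-ko libraries. These groups overlapped, with a difference of -0.05 on the log2 scale and a 95% interval of -0.33 to 0.24, and a read ratio of 0.943 (0.665 to 1.33). CDH2 was at 0.265 and 0.326 RPKM against 0.423 and 0.524 RPKM, a difference of 0.29 with an interval of -0.06 to 0.64 (adjusted p = 0.251). The groups of CDH2 did not overlap, and its read ratio was 1.60 (0.993 to 2.62). CDH3 differed by -0.03 (-0.35 to 0.29), with a read ratio of 0.921 (0.356 to 2.32). None of these 3 genes passed the test, and a change within such an interval could be missed at this depth.

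Under the label MEK5DD in MDA-MB-231, CDH11 and CDH1 fell and CDH4 rose, 3 members called beside 13.9% of all tested genes. CDH11 went from 53.1 RPKM in each parental library to 2.26 and 2.37 RPKM (82 and 99 reads). It fell by 4.25 ± 0.14 on the log2 scale (adjusted p = 1.44e-09), or 22.9-fold by the means. CDH4 went from 11.3 and 10.96 RPKM to 35.9 and 36.5 RPKM, a rise of 1.66 ± 0.10 (adjusted p = 2.21e-07). CDH4 thereby made up 92.5% of the summed cadherin RPKM and CDH11 5.91%, while the sum itself was 39.1 ± 0.535 RPKM against 65.4 ± 0.223 RPKM in parental controls (SD, n = 2). With lengths of the longest transcript the shares were 97.0% and 2.06%, and the direction of the sum turned, to 24.6 ± 0.317 against 19.5 ± 0.164.

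CDH1 had 2 and 0 reads in MDA-MB-231 MEK5DD libraries against 35 and 40 in parental controls. It fell by 1.14 ± 0.13 on that scale (adjusted p = 2.95e-05), and the read ratio was 0.0270 (0.00322 to 0.101). With a pseudocount of 1 in place of 0.5 the difference was -0.69, short of the fold threshold. CDH13 had 10 and 9 reads in MEK5DD libraries against 1 and 2, a ratio of 6.42 (1.89 to 33.9), and met the adjusted p (0.0086) and fell short of the fold on the fitted scale, while limma voom on recovered reads called it at 2.37 (adjusted p = 0.00375). CDH2 differed by -0.05 (-0.40 to 0.30) and CDH3 by -0.09 (-0.41 to 0.23), and neither passed the test.

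**Figure D3:**
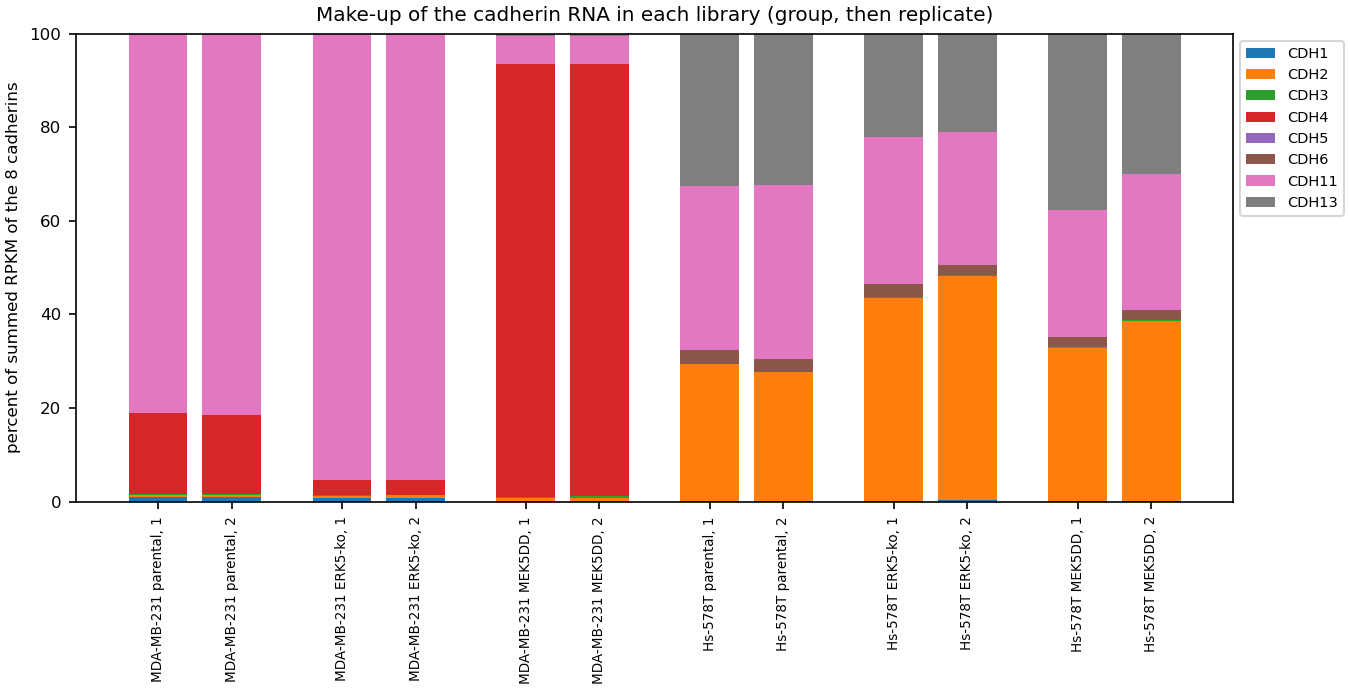
Share of each cadherin in the summed RPKM of the 8 genes in each of the 12 libraries, with deposited lengths, replicates side by side. CDH11 makes up 81.2% in MDA-MB-231 parental controls and 95.4% in ERK5-ko libraries, and CDH4 makes up 92.5% in MEK5DD libraries; in Hs-578T, CDH2, CDH11 and CDH13 share most of the sum in all 6 libraries.

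Both comparisons above share the parental libraries, so their values are not independent of each other. Set directly against each other, MDA-MB-231 libraries labelled ERK5-ko and MEK5DD differed in 3 members, beside 23.6% of all tested genes. CDH11 was higher in ERK5-ko libraries by 4.92 ± 0.14 (adjusted p = 2.97e-10) and CDH4 lower, at -3.46 ± 0.10 (adjusted p = 3.76e-10). CDH1 had 64 reads summed over the ERK5-ko pair and 2 over the MEK5DD pair, a ratio of 34.9 (9.26 to 294), and was called at 1.10 ± 0.13 (adjusted p = 2.4e-05). CDH13 had 1 read over the ERK5-ko pair and 19 over the MEK5DD pair, a ratio of 0.0573 (0.00138 to 0.361). It passed the adjusted p (0.00288) at -0.44 ± 0.10 and not the fold threshold, while it was called at -3.40 by limma voom on recovered reads (adjusted p = 0.000476) and at -1.40 with a pseudocount of 0.1.

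Under the label ERK5-ko in Hs-578T, CDH1 and CDH2 rose, 2 members called beside 12.6% of all tested genes. CDH1 was 0.119 and 0.218 RPKM (6 and 10 reads) in parental controls and 0.930 and 1.16 RPKM (54 and 62 reads) in ERK5-ko libraries. The groups did not overlap, the read ratio was 6.26 (3.70 to 11.3), and the fitted rise was 1.21 ± 0.13 (adjusted p = 3.45e-05). CDH1 nevertheless made up under 1% of the summed cadherin RPKM, and with a filter of 1 RPKM in at least 2 libraries it was not tested. CDH2 was 135 and 146 RPKM in parental controls and 219 and 248 RPKM in ERK5-ko libraries, a rise of 0.73 ± 0.16 (adjusted p = 0.00402). E-cadherin and N-cadherin RNA thus rose together, the first from 16 reads over the parental pair and the second from 12119.

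CDH13 was 149.8 and 171 RPKM in Hs-578T parental controls and 112 and 109 RPKM in ERK5-ko libraries. These groups did not overlap, and the difference was -0.54 ± 0.10 (adjusted p = 0.00152), which is 1.45-fold lower and short of the fold threshold. CDH11 was 160.5 and 196 RPKM against 159 and 146 RPKM, a difference of -0.22 with an interval of -0.52 to 0.08 (adjusted p = 0.227). CDH6 differed by -0.12 (-0.39 to 0.15), and CDH3 by 0.29 (-0.03 to 0.61) at 15 and 15 reads against 32 and 20. The share of CDH2 in the summed RPKM was 45.7% in ERK5-ko libraries and that of CDH13 21.6%, with a sum of 510.3 ± 7.47 RPKM.

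Under the label MEK5DD in Hs-578T, where MAP2K5 rose only from 15.8 to 22.5 RPKM, 0 members were called by limma, beside 4.38% of all tested genes. 2 members, CDH11 and CDH6, had an unadjusted p under 0.05, and limma voom on recovered reads also called 0. CDH11 was 118 and 159.8 RPKM against 160.5 and 196 RPKM in parental controls, a difference of -0.37 with an interval of -0.67 to -0.07 (adjusted p = 0.0764). CDH6 was 10.1 and 11.9 RPKM against 13.3 and 14.4 RPKM, a difference of -0.32 (-0.59 to -0.06, adjusted p = 0.0791). CDH2 was 143 and 212 RPKM, and the group difference was 0.31 (-0.04 to 0.66). This value rests on 1 library: without MEK5DD replicate 1 it was 0.59 and called (adjusted p = 0.0108). CDH13 was 164 and 165 RPKM, a difference of 0.04 (-0.18 to 0.26), and CDH1 had 3 and 9 reads against 6 and 10.

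Set directly against each other, Hs-578T libraries labelled ERK5-ko and MEK5DD differed in 1 member by the call rule, beside 19.3% of all tested genes. CDH1 was higher in ERK5-ko libraries by 1.29 ± 0.13 (adjusted p = 1.13e-05), with 116 reads summed over the pair against 12. CDH13 was lower by -0.58 ± 0.10 (adjusted p = 0.000678) and CDH2 higher by 0.42 ± 0.16 (adjusted p = 0.0479). Both passed the adjusted p and not the fold threshold, but without MEK5DD replicate 2 the difference of CDH2 was 0.70 and called (adjusted p = 0.00112).

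**Figure D4:**
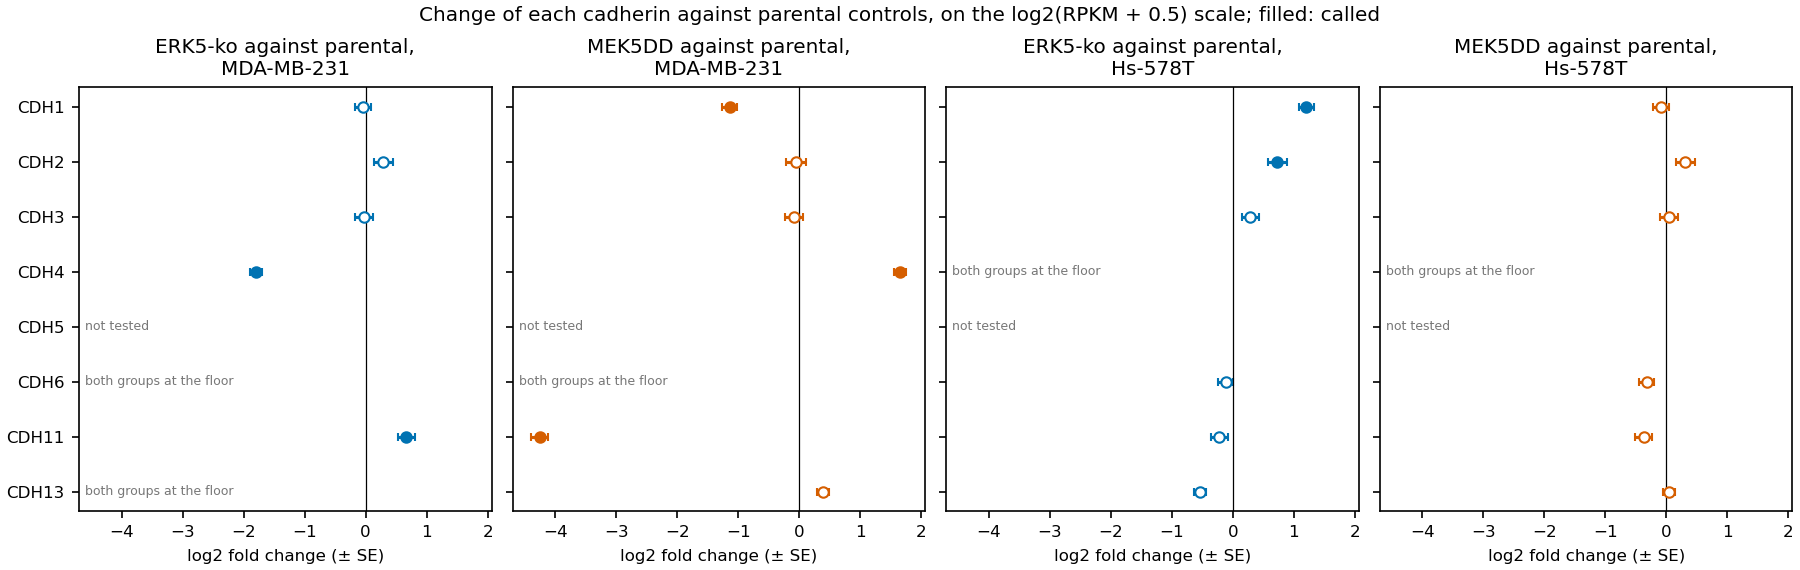
Fitted log2 fold change of each cadherin against the parental controls of its line (± SE), on the log2(RPKM + 0.5) scale, with filled points for called genes, and words where both groups are at the floor or the gene was not tested. CDH11 lies at -4.25 and CDH4 at 1.66 in MDA-MB-231 MEK5DD libraries, against 0.67 and -1.80 in ERK5-ko libraries; no point is filled for MEK5DD in Hs-578T.

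Whether the lines differed in these effects was tested directly. The difference of the ERK5-ko effect between Hs-578T and MDA-MB-231 passed an adjusted p of 0.05 for 4 members, beside 39.8% of all tested genes, and that of the MEK5DD effect for 3, beside 39.6%. CDH1 had a larger ERK5-ko effect in Hs-578T by 1.25 ± 0.18 (adjusted p = 0.000323), and CDH11 a smaller one, at -0.89 ± 0.20 (adjusted p = 0.00426). For MEK5DD, CDH11 differed by 3.88 ± 0.20 (adjusted p = 1.2e-07) and CDH1 by 1.06 ± 0.18 (adjusted p = 0.000898). Under this label MAP2K5 RNA rose from 13.2 to 186 RPKM in MDA-MB-231 and from 15.8 to 22.5 RPKM in Hs-578T. The part of that in the differences was not tested. CDH4 passed in both tests, at 1.83 and -1.66, with its Hs-578T side at the floor, so that both set the MDA-MB-231 effect against a gene that was hardly read in the other line. CDH2 did not pass in either, at 0.44 (-0.06 to 0.94) for ERK5-ko and 0.36 (-0.14 to 0.86) for MEK5DD. With a replicate block in the fit, the former passed (adjusted p = 0.0427), and without Hs-578T MEK5DD replicate 1 the latter was 0.64 (adjusted p = 0.0111).

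Catenins bind the tails of cadherins, and of the 10 listed 7 were tested. In MDA-MB-231 ERK5-ko libraries 1 was called higher and 0 lower, beside 3.87% of all tested genes. The median was 0.13 on the log2 scale against -0.04 for all tested genes. The one called was JUP (plakoglobin, which can take the place of beta-catenin), at 144 ± 0.454 RPKM against 78.3 ± 7.40, a rise of 0.87 ± 0.14 (adjusted p = 0.00194). In MDA-MB-231 MEK5DD libraries JUP was 12.1 ± 0.219 RPKM, at -2.64 ± 0.14 (adjusted p = 7.96e-08), and ARVCF (a relative of p120-catenin) rose by 0.71 ± 0.14, with a median of -0.29 against -0.01 for all tested genes. In Hs-578T ERK5-ko libraries JUP was 15.3 ± 3.04 RPKM against 57.2 ± 6.06, at -1.88 ± 0.14 (adjusted p = 3.01e-06), and the median was 0.25 against 0.01. JUP thus went up in MDA-MB-231 and down in Hs-578T libraries with the same label. Beta-catenin (CTNNB1) passed the adjusted p in MDA-MB-231 ERK5-ko libraries at -0.67 ± 0.09 (adjusted p = 0.000486), short of the fold threshold, and no catenin was called in Hs-578T MEK5DD libraries, where the median was -0.13 against -0.08. Over all tested genes 13.9% were called for MEK5DD in MDA-MB-231, 12.6% for ERK5-ko in Hs-578T and 4.38% for MEK5DD in Hs-578T.

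Of 10 nectins and actin linkers of the adherens junction 9 were tested. In Hs-578T ERK5-ko libraries 4 were called higher and 0 lower, with a median of 0.48. Over all tested genes 12.6% were called there (1285 higher and 449 lower), with a median of 0.01. PLEKHA7, which ties p120-catenin to microtubules, went from 1.19 to 10.7 RPKM, a rise of 2.72 ± 0.21 (adjusted p = 2.84e-06). Afadin (listed as MLLT4), which joins nectins to actin, rose by 0.90 ± 0.15, LIMA1 (an actin-bundling protein) by 0.79 ± 0.11 and nectin 1 (listed as PVRL1) by 0.63 ± 0.16. In Hs-578T MEK5DD libraries 1 was called higher (PLEKHA7, 0.77 ± 0.21) and 0 lower, with a median of -0.07, beside 4.38% and -0.08 over all tested genes. In MDA-MB-231 0 were called in ERK5-ko libraries (median -0.15, 1 at an adjusted p under 0.05), beside 3.87% and -0.04 over all tested genes. In MEK5DD libraries of that line 2 were called higher (median 0.19, beside 13.9% and -0.01), namely ACTN1 (alpha-actinin) at 1.02 ± 0.12 and nectin 1 at 0.99 ± 0.16.

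Of the 6 genes for cadherin processing and turnover 5 were tested, and 0 were called in any of the 4 comparisons with parental controls. The rule asked for a larger change of falls than of rises. In MDA-MB-231 MEK5DD libraries 3 passed the adjusted p in the lower direction, with a list median of -0.62: ADAM10, a protease that sheds cadherin ectodomains, at -0.96 ± 0.14, PSEN2 at -0.73 ± 0.10, and FURIN, which removes the cadherin prodomain, at -0.62 ± 0.13. The medians were -0.08 for ERK5-ko in MDA-MB-231, 0.10 for ERK5-ko in Hs-578T and -0.24 for MEK5DD in Hs-578T. Over all tested genes the medians were -0.01 for MEK5DD in MDA-MB-231 and, in the order just given, -0.04, 0.01 and -0.08, and 3.87% to 13.9% were called.

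**Figure D5:**
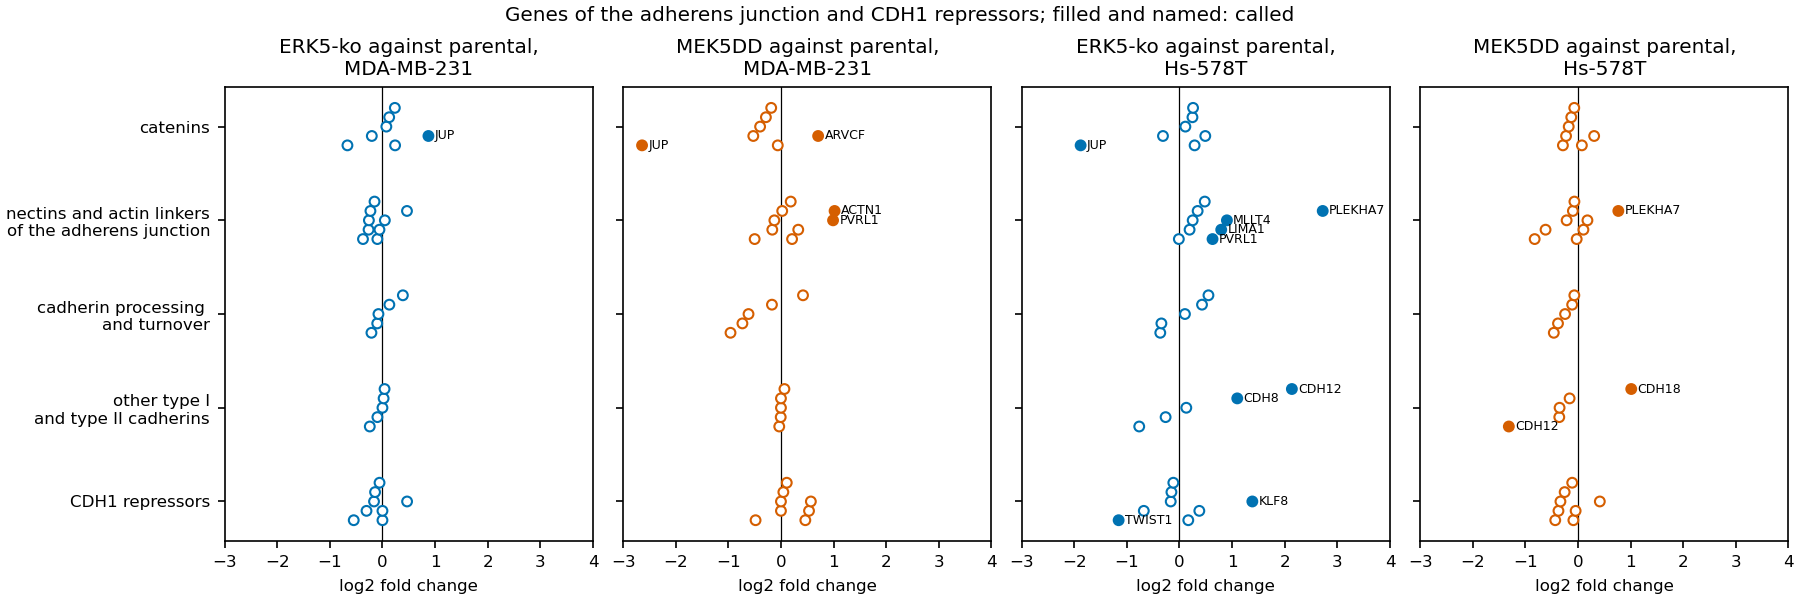
Fitted log2 fold change of the tested genes of 5 lists in the 4 comparisons with parental controls, each point 1 gene, filled and named where called. JUP lies at 0.87 and -2.64 in MDA-MB-231 and at -1.88 in Hs-578T ERK5-ko libraries, and the 4 filled nectins and linkers in that Hs-578T panel all lie right of 0.

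Further cadherins of types I and II were listed beside the 8 members. Of these 11, 5 were tested. In MDA-MB-231 0 were called for ERK5-ko or MEK5DD, beside 3.87% and 13.9% of all tested genes, with medians of 0.00. CDH8, CDH12 and CDH18 had 0 to 2 reads in each library of that line. They could hardly be called there, and the medians rest on such unread genes. CDH12, a type II cadherin of the brain, had 0 reads in all 6 MDA-MB-231 libraries and 5.77 RPKM in Hs-578T parental controls, 27.0 RPKM in ERK5-ko libraries and 2.01 RPKM in MEK5DD libraries. Its rise of 2.14 ± 0.11 (adjusted p = 1.79e-07) and its difference of -1.31 ± 0.11 (adjusted p = 2.28e-05) were both called. CDH8 rose by 1.10 ± 0.10 in Hs-578T ERK5-ko libraries, from 0.161 to 0.917 RPKM. It passed the filter through those ERK5-ko libraries alone, so the filter favoured its call as higher. CDH18 rose by 1.013 ± 0.10 in Hs-578T MEK5DD libraries, from 14.4 to 29.5 RPKM. In all 2 were called higher and 0 lower for ERK5-ko in Hs-578T (median 0.13), and 1 higher and 1 lower for MEK5DD (median -0.35), beside 12.6% and 4.38% of all tested genes called and medians of 0.01 and -0.08.

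Known repressors of CDH1 were listed with 9 genes, of which 8 were tested. In Hs-578T ERK5-ko libraries, where CDH1 rose, 1 was called higher and 1 lower, with a median of -0.13, beside 12.6% called and a median of 0.01 over all tested genes. TWIST1 went from 32.8 to 14.6 RPKM, a difference of -1.16 ± 0.13 (adjusted p = 3.78e-05), and KLF8 from 0.315 to 1.63 RPKM, a rise of 1.39 ± 0.12 (adjusted p = 8.96e-06). TWIST2 (-0.68 ± 0.10, adjusted p = 0.000347) and ZEB1 (0.38 ± 0.13, adjusted p = 0.0334) passed the adjusted p there and not the fold threshold. In MDA-MB-231 MEK5DD libraries, where CDH1 was at the floor, 0 were called, while 3 passed the adjusted p in the higher direction (SNAI1 0.57, KLF8 0.53 and ZEB1 0.46) and 1 in the lower (SNAI2, -0.48), with a median of 0.08, beside 13.9% and -0.01 over all tested genes. In MDA-MB-231 ERK5-ko libraries 0 were called (median -0.10) and in Hs-578T MEK5DD libraries 0 (median -0.18), with 2 and 3 at an adjusted p under 0.05, beside 3.87% and 4.38% of all tested genes called and medians of -0.04 and -0.08. TWIST1 and TWIST2 had 0 reads in all 6 MDA-MB-231 libraries and could not be called there. Over the 5 lists, limma called 0 genes in 11 list comparisons, in which 0 to 4 genes had an unadjusted p under 0.05, and limma voom on recovered reads called 4 genes there. They included SNAI1 (1.29, adjusted p = 0.041) and KLF8 (0.71, adjusted p = 0.00347) in MDA-MB-231 MEK5DD libraries.

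Markers of other cell types moved with some of these results, and their part in them was not tested. Of the 6 luminal epithelial markers 4 were tested, and their summed level was 1194 to 1270.0 RPKM in MDA-MB-231 parental libraries, 1915 to 1948 RPKM in ERK5-ko and 839 to 889 RPKM in MEK5DD libraries. KRT8 rose by 0.69 ± 0.10 and KRT19 by 0.60 ± 0.17 in ERK5-ko libraries, while EPCAM fell by 1.30 ± 0.11 and KRT19 by 1.04 ± 0.17 in MEK5DD libraries. ESRP1 went the other way in those MEK5DD libraries, from 0.0879 to 0.383 RPKM, and passed the adjusted p without being called. For ERK5-ko 2 were called higher and 0 lower, beside 3.87% of all tested genes. For MEK5DD 0 were called higher and 2 lower, beside 13.9%. In Hs-578T the summed level was 48.2 to 52.5 RPKM in parental, 29.2 to 30.6 RPKM in ERK5-ko and 62.1 to 71.3 RPKM in MEK5DD libraries. KRT8 passed the adjusted p in those ERK5-ko libraries at -0.75 ± 0.10 (adjusted p = 0.00013), short of the fold threshold. ESRP1 fell by 1.29 ± 0.16 in MEK5DD libraries, to 6 and 8 reads. It passed the filter through Hs-578T parental and ERK5-ko libraries alone, so the filter favoured its call as lower. In that line 0 were called for ERK5-ko, beside 12.6% of all tested genes, and 0 higher and 1 lower for MEK5DD, beside 4.38%. KRT18, the filament partner of KRT8, was listed with the label checks and is not in these sums. It rose by 0.88 ± 0.16 in MDA-MB-231 ERK5-ko libraries. In Hs-578T ERK5-ko libraries it went from 177 ± 50.8 to 571 ± 35.2 RPKM, a called rise of 1.71 ± 0.16 (adjusted p = 1.49e-05), which is larger than the fall of the sum and against its direction.

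The summed level of 7 endothelial markers was 14.9 to 15.2 RPKM in MDA-MB-231 parental, 4.84 to 5.13 RPKM in ERK5-ko and 64.8 to 68.0 RPKM in MEK5DD libraries, and 7.41 to 12.9 RPKM over the 6 Hs-578T libraries. ESAM carried most of the MDA-MB-231 values, at 12.6, 3.84 and 63.2 RPKM as group means. PECAM1 was at 0.768, 0.263 and 0.252 RPKM in the same groups and KDR at 1.58, 0.796 and 2.34 RPKM. In Hs-578T, PECAM1 (2.89 to 6.39 RPKM) and ERG (4.04 to 5.92 RPKM) carried most of the sum. VE-cadherin itself (CDH5) had 0 or 1 read in every library and VWF 1 to 6 reads in MDA-MB-231. Of the 4 tested, 1 was called lower for ERK5-ko in MDA-MB-231 and 1 higher for MEK5DD, beside 3.87% and 13.9% of all tested genes. In Hs-578T 0 were called under either label, beside 12.6% and 4.38%, with 2 lower at an adjusted p under 0.05 in each. Of 4 leukocyte markers 1 was tested, CD14, which fell by 1.09 ± 0.14 in Hs-578T ERK5-ko libraries, and the list summed to 0.419 to 2.21 RPKM over all libraries, with PTPRC at 0 to 13 reads.

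For the 4 members called in a comparison with parental controls, the genes with the most similar profile were sought among 12418 genes, by the correlation over the 12 libraries of log2(RPKM + 0.5) after the mean of each line was taken out. The points come in pairs from 6 groups, and r is a description only. CDH11 was most like CDC42BPG (r = 0.996), RARG (0.995) and PAK6 (0.995). CDC42BPG was at 6.12 RPKM in MDA-MB-231 parental, 9.20 in ERK5-ko and 0.625 in MEK5DD libraries. CDH4 was most like PEAR1 (0.992), CLIC5 (0.990) and CCNA1 (0.989), of which CLIC5 was at 3.38, 1.08 and 12.3 RPKM in the same groups and at 0.0240 to 0.0569 RPKM in Hs-578T. CDH1 was most like NAA25 (0.989), NKRF (0.985) and INSR (0.985). CDH2 was most like TUFT1 (0.949), TMEM63A (0.934) and ERCC2 (0.924), a lower likeness than that found for the other members.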

How the data were processed

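RNA from 12 libraries (2 per group, grouped by line and label from the sample labels) was taken from cells grown to 70% confluence, and stranded mRNA libraries were sequenced. The authors deposited RPKM values per gene. The submitters' processing notes name GRCh38, bcl2fastq, Trimmomatic 0.32, TopHat2 2.1.1, R 3.3.1 and DESeq2 1.12.4, while the counting tool and the annotation release are not given in the sources used here. Whole reads were recovered from the deposited RPKM for all 32152 genes, and 88.06% of matched genes had a length within 1% of the mean GENCODE 29 transcript length.

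Means of the 6 groups were estimated on log2(RPKM + 0.5) by limma 3.58.1 (R 4.3.3) with 6 residual degrees of freedom and a variance trend, and the scripts were tested on simulated data. Gene lists and members were chosen with earlier results of these data known. From the list of nectins and actin linkers 1 gene, removed after its values were seen, is not reported here. Named genes are the 8 members, from each list the called genes with the largest change (at most 4 per line), the 3 genes most like each called member, and MAPK7 and MAP2K5. ESR1, PGR, ERBB2, VIM and KRT18 served as label checks. Genes named beyond this rule (CTNNB1, the processing genes, SNAI1, SNAI2, TWIST2, ZEB1, PECAM1, KDR, ERG, VWF, PTPRC and RP11-229O3.1) were chosen after their values were seen. The 2 libraries of a group carry consecutive passage labels, and the labels do not say that they came from independent cultures. The p-values thus measure the spread between these libraries, which may be technical in part, and not that between independently made clones or populations. An exact permutation test of 2 against 2 cannot go below 0.333. The labels do not state a pairing of samples by replicate number, and the main fit had no replicate term. Deviations of same-numbered libraries correlated between groups of a line with r of 0.107 to 0.541. This does not settle whether the samples were paired.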

Additional observations from a re-analysis of the deposited data

Results flagged for a closer look

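For 7 values the effect of a label on a cadherin differed between the lines by a test of the difference itself (limma, Hs-578T minus MDA-MB-231, log2 scale). For ERK5-ko the difference was 1.25 for CDH1 (effects of 1.21 in Hs-578T and -0.05 in MDA-MB-231, adjusted p = 0.000323), -0.89 for CDH11 (adjusted p = 0.00426), 1.83 for CDH4 (adjusted p = 5.66e-06) and -0.49 for CDH13 (adjusted p = 0.0185). CDH4 was at the floor in Hs-578T and CDH13 in MDA-MB-231 outside the MEK5DD group, so those differences set a change in 1 line against a gene that was hardly read in the other. For MEK5DD it was 1.06 for CDH1 (adjusted p = 0.000898), -1.66 for CDH4 (adjusted p = 7.24e-06) and 3.88 for CDH11 (effects of -0.37 in Hs-578T and -4.25 in MDA-MB-231, adjusted p = 1.2e-07). These stand beside 39.8% and 39.6% of all tested genes that passed the same tests. For MEK5DD, CDH1 had little room to fall in Hs-578T on the log2(RPKM + 0.5) scale, with 6 and 10 reads in parental controls. The cause of the differences was not tested.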

How the results depend on the processing

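With 2 libraries per group and genes as shallow as CDH1 (0 to 62 reads) and CDH3 (3 to 32 reads), small changes of low cadherins could not be seen. Each value was recomputed with other choices of pseudocount, filter, scaling, libraries in the fit, gene types, fold threshold, variance trend and test, with each library left out in turn. Of 23 called values of members, 4 lost the call at least once where the gene was tested, and 1 of these changed sign, the ERK5-ko difference of CDH13 (0.49 by limma voom on recovered reads, adjusted p = 0.614; adjusted p = 0.239 with a pseudocount of 0.1, and 0.0524 to 0.0642 without 1 of 4 libraries, MDA-MB-231 parental replicate 1, MDA-MB-231 ERK5-ko replicate 1, Hs-578T parental replicate 2 or Hs-578T ERK5-ko replicate 2). The other 3 were CDH11 for ERK5-ko and CDH1 for MEK5DD in MDA-MB-231, given above, and the MEK5DD difference of CDH4 by limma voom (-1.60, adjusted p = 0.0676). With a filter of 1 RPKM the members called were 1 for ERK5-ko in Hs-578T and 0 for ERK5-ko against MEK5DD in Hs-578T. With a pseudocount of 0.1, 5 were called for ERK5-ko against MEK5DD in MDA-MB-231, and without a fold threshold 3 in Hs-578T. That filter leaves CDH1 out, so that its 6 called values were not tested there. In all, 9 of the 23 lost the call at least once or were not tested under that filter. Fits of 1 cell line alone hold no comparison between lines, so the between-line values were not checked there and are not counted as untested. The causes of the other shifts were not tested.

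Without 1 library each, the members called ranged from 1 to 2 for ERK5-ko in MDA-MB-231, 0 to 1 for MEK5DD in Hs-578T, 1 to 2 for ERK5-ko against MEK5DD in Hs-578T, 5 to 6 between parental lines, 3 to 5 for the ERK5-ko difference and 3 to 4 for the MEK5DD difference. They stayed at 2 for ERK5-ko in Hs-578T, 3 for MEK5DD in MDA-MB-231 and 3 for ERK5-ko against MEK5DD in MDA-MB-231. Where a fit leaves 1 library in a group, that library is assumed to vary like the other groups. With the replicate number as a replicate block, 5 members in place of 4 passed for the ERK5-ko difference (CDH2 was added). The block changed no other call of a member, and the counts of members were otherwise those reported.

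Uncalled values near 0 changed sign. Under quantile normalization the ERK5-ko effects in MDA-MB-231 were 0.046 for CDH1 and 0.085 for CDH3, the MEK5DD effect there was 0.099 for CDH2, and that in Hs-578T was 0.0083 for CDH1. Without 1 library each, the range of CDH3 was -0.17 to 0.11 for ERK5-ko in MDA-MB-231, -0.10 to 0.18 for MEK5DD in Hs-578T, -0.078 to 0.20 for ERK5-ko against MEK5DD in MDA-MB-231 and -0.0086 to 0.27 for the MEK5DD difference. That of CDH6 was -0.26 to 0.019 for ERK5-ko in Hs-578T and -0.27 to 0.0010 for the ERK5-ko difference, that of CDH2 -0.12 to 0.025 for MEK5DD in MDA-MB-231, that of CDH1 -0.23 to 0.067 and of CDH13 -0.057 to 0.13 for MEK5DD in Hs-578T, and that of CDH11 -0.070 to 0.37 for ERK5-ko against MEK5DD in Hs-578T. Without the fold threshold the genes called over all tested genes were 2379 and 5413 for ERK5-ko, 5673 and 3213 for MEK5DD and 7552 and 6866 for ERK5-ko against MEK5DD (MDA-MB-231, then Hs-578T), and 10629 between parental lines; limma voom called 911 for MEK5DD in Hs-578T against 602.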
